A study of Mus musculus with 8 samples.

Results

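Cadherins and protocadherins were examined here as a gene family in the embryonic mouse neocortex. A gene belonged to the family where its array probe carried a RefSeq accession whose symbol was Cdh followed by a number, or began with Pcdh. The rule found 87 probes for 69 genes, out of 39429 gene probes on the array, and 93 symbols of the RefSeq gene table matched it. Matching symbols without a mapped probe have no value here, so counts below cover the mapped genes and not the whole family. The 69 genes comprised 5 type I classical cadherins, 13 type II classical cadherins, 5 other cadherins, 11 non-clustered protocadherins and 35 protocadherins of the gene clusters (7 alpha, 22 beta, 6 gamma). Total RNA came from the ICR strain of mouse at embryonic day 16. It was taken from the manually dissected ventricular and subventricular zone (V/SVZ, 4 samples) and the manually dissected cortical plate (CP, 4 samples), and no treatment or genetic change was given for either. Each sample was amplified from 100 ng of RNA and hybridised to a 1-colour Agilent array. Whether the samples were drawn from different embryos or litters is not stated in the labels, so p-values here reflect sample-to-sample spread that may be technical.

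Cadherins are calcium-dependent adhesion molecules that bind the same or related cadherins on a neighbouring cell. The classical types hold cells together through catenins, which link their tails to actin. In the embryonic cortex, N-cadherin (Cdh2) is the main cadherin of the junctions that join progenitors at the ventricular surface, while type II cadherins are known for marking groups of neurons, areas and layers. Protocadherins have different tails and no catenin-binding site of the classical kind. Each neuron uses its own combination of the clustered genes, which lie in tandem on the same chromosome, and this is known to serve recognition between the branches of one cell. The V/SVZ holds mainly dividing progenitors, and the CP holds mainly neurons that have reached their layer.

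The arrays were alike within a tissue. The share of gene probes with a signal well above background was 58.4% to 62.9%, and the correlation of log2 signals over genes was 0.992 to 0.995 among V/SVZ arrays, 0.996 to 0.997 among CP arrays and 0.880 to 0.897 between tissues. The marker lists followed the labels: all 8 progenitor markers were higher in V/SVZ and all 7 CP neuron markers were higher in CP. The V/SVZ arrays shared slide 1 and the CP arrays slide 2, which means that slide and tissue cannot be told apart. The tissues were dissected in bulk, so fewer cells of a type and less RNA per cell cannot be told apart. Levels below are processed spot intensities scaled to a common 75th percentile, in arbitrary units, listed for samples 1 to 4. They compare tissues for a probe and do not rank one gene against another. Differences are log2 V/SVZ minus CP with the standard error of the fit in limma. Testing required a signal well above background throughout 1 tissue or both, which 19230 genes met, and a gene was called at an adjusted p under 0.05 over all of them. Of the 19230, 13829 carried a gene symbol, and each array target without a symbol was also counted as a gene. Shares over all genes include such targets, while every family member carries a symbol.

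The family leaned toward the CP. Of its 69 genes, 55 could be tested: 5 had more signal in V/SVZ, 46 had more in CP and 4 were not called, so 92.7% were called. Over all genes tested, 79.5% were called, 35% as higher in V/SVZ and 44.6% as higher in CP, so a call alone carried little information in this comparison. The 5 genes higher in V/SVZ were Cdh4, Cdh20, Cdh22, Pcdh10 and Pcdh18, and the 4 genes not called were Cdh5, Cdh6, Pcdh15 and Pcdh17. Of the 55 members tested, 10 had passed the filter through one tissue alone, which favours a difference. Among the 45 members well above background on all 8 arrays, 4 were higher in V/SVZ, 37 were higher in CP and 4 were not called, against 34.4%, 44.6% and a total of 79% called among the 17186 genes that met the same condition. Their median difference was -1.14, where the median of all those genes was -0.09. With no filter, 5 of the 69 members were higher in V/SVZ, 51 were higher in CP and 13 were not called, against 21%, 38.2% and a total of 59.2% called among 32520 genes. A difference of at least 2-fold was called for 3 members in favour of V/SVZ and 35 in favour of CP, where 13.7% and 16.5% of all genes tested reached it, 30.2% in all. The tissues did not overlap in 49 of the 55 members, and in 75.2% of all genes. Of the 11 genes with several probes, 9 had the same call from each tested probe, 1 had differing calls and 1 had under 2 tested probes. Over all probes tested, 79.7% were called. The share of agreeing genes over the whole array was not computed.

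**Figure D1:**
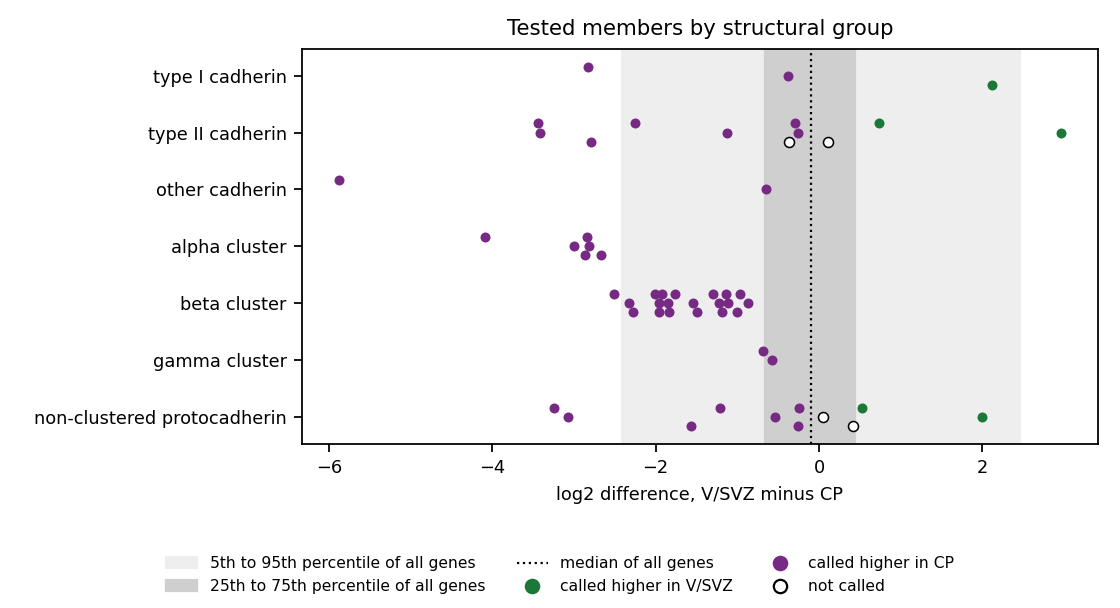
Difference of each tested member (log2 V/SVZ minus CP, horizontal axis) by structural group, 1 point per gene, coloured by its call and stacked only to avoid overlap, with the 5th to 95th and 25th to 75th percentiles of all genes tested as grey bands and their median, -0.09, as a dotted line. The alpha and beta clusters lie wholly below 0, with medians of -2.85 and -1.65, while the type I and type II cadherins and the non-clustered protocadherins lie on both sides.

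Promoter sequences are shown for members that differed strongly in either direction, so that the start regions of genes with opposite tissue patterns can be read side by side. RefSeq promoter entries (GRCm38.p6, from 250 bases before to 50 after the start) matched 22 of the 69 genes with 25 entries, and the 4 printed were chosen after the values were seen. Pcdh10 and Cdh20 were higher in V/SVZ, and Pcdh7 and Cdh12 were higher in CP. Capitals mark only the E-box forms searched for. E-boxes are 6-base sites read by basic helix-loop-helix and zinc-finger factors such as the proneural proteins and Zeb1 and Zeb2. Other E-box forms were not searched for and are unmarked. The search was for CACCTG, which the other strand shows as CAGGTG. It also took in the palindrome CAGCTG. Both strands were searched, and the motifs differ in their middle bases, so a single site cannot be counted as both. All 4 sequences are on the plus strand.
Pcdh10 at chr3:45378148-45378447: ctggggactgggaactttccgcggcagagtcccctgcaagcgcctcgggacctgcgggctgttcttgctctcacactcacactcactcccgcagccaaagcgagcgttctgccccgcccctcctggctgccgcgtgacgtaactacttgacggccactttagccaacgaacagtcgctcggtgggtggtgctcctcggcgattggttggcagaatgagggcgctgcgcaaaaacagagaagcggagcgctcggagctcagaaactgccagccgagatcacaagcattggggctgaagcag
Cdh20 at chr1:104768270-104768569: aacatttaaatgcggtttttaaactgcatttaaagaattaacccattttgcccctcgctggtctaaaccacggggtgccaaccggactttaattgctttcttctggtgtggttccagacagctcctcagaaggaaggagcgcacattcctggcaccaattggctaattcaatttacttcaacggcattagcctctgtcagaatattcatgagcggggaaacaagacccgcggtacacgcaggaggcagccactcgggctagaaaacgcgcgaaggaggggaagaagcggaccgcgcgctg
Pcdh7 at chr5:57717831-57718130: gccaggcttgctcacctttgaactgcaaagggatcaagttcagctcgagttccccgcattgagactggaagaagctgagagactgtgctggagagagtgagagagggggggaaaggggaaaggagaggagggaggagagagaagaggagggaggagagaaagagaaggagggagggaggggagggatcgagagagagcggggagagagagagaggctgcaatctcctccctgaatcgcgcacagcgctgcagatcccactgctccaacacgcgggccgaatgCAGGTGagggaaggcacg
Cdh12 at chr15:21111202-21111501: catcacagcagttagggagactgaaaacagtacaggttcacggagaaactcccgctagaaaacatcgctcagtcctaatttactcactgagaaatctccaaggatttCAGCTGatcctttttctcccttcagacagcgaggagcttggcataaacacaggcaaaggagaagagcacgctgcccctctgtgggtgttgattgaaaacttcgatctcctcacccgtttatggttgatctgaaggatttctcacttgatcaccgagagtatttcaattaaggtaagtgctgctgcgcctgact

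The Pcdh7 window held 1 CAGGTG and the Cdh12 window 1 CAGCTG, while neither motif was found in the Pcdh10 and Cdh20 windows. The 4 printed windows do not stand for the rest. Cdh8, Cdh10, Cdh15, Cdh18, Cdh26, Pcdh8, Pcdh9, Pcdh19 and Pcdh20 were also higher in CP and held neither motif. Cdh22 and Pcdh18, the other V/SVZ-higher genes with an entry, held neither as well. A link between motif and tissue was not tested. Over all 32851 promoter entries, 20.2% held CACCTG or CAGGTG and 16.3% held CAGCTG. Of the 25 member entries, 5 held the first motif and 3 held the second. Counted by gene, among the 22 members with an entry, the first motif was found in 3 (Cdh7, Pcdh7 and Pcdh15) and the second in 3 (Cdh9, Cdh12 and Pcdh15). CG dinucleotides numbered 24 in the Pcdh10 window, 18 in Cdh20, 11 in Pcdh7 and 9 in Cdh12. Their median was 14 over the 25 member entries and 7 over all entries. The 4 V/SVZ-higher genes with an entry had 18 to 38 and the 13 CP-higher genes 2 to 21, taking the highest entry of a gene. These counts describe the sequence and do not identify a binding site.

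The type I cadherins build strong junctions between like cells, and the 3 tested went in both directions. Cdh4 (R-cadherin), a close relative of N-cadherin, was the type I gene higher in V/SVZ. Its probe read 22462, 24439, 21903 and 21906 in V/SVZ and 5858, 7291, 3537 and 4905 in CP. All V/SVZ samples lay far above all CP samples, and the CP samples themselves ranged widely. The difference was 2.12 ± 0.20, or 4.34-fold (adjusted p = 2.182e-05), and the 3 Cdh4 probes gave 2.0 to 2.17.

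Cdh2 was bright in both tissues and a little higher in CP. It read 77193, 75719, 70657 and 74522 in V/SVZ and 98593, 92685, 98689.8 and 98203 in CP. The tissues did not overlap, but the difference was small, -0.38 ± 0.04 or 1.30-fold (adjusted p = 4.83e-05). The second Cdh2 probe gave -0.35. With arrays scaled to their medians the Cdh2 difference was -0.29 (adjusted p = 0.011). With the normexp background correction described below it was -0.19, or 1.14-fold. Cdh15 (M-cadherin), best known from muscle and cerebellum, was dim in V/SVZ, where its probe was well above background on 3 of 4 arrays. Its intensities were 31.6, 43.8, 53.9 and 26.1 in V/SVZ and 385, 346, 169 and 219 in CP. The samples of CP split into a higher and a lower pair, and every one lay above V/SVZ. The difference was -2.83 ± 0.32, 7.10-fold (adjusted p = 7.43e-05), and 3.63-fold with a normexp background correction. That correction adds an offset of 50 to every signal, which shrinks the folds of dim probes. Cdh1 (E-cadherin), the cadherin of epithelia, was well above background on none of the 8 arrays. Cdh3 (P-cadherin) was not tested either.

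**Figure D2:**
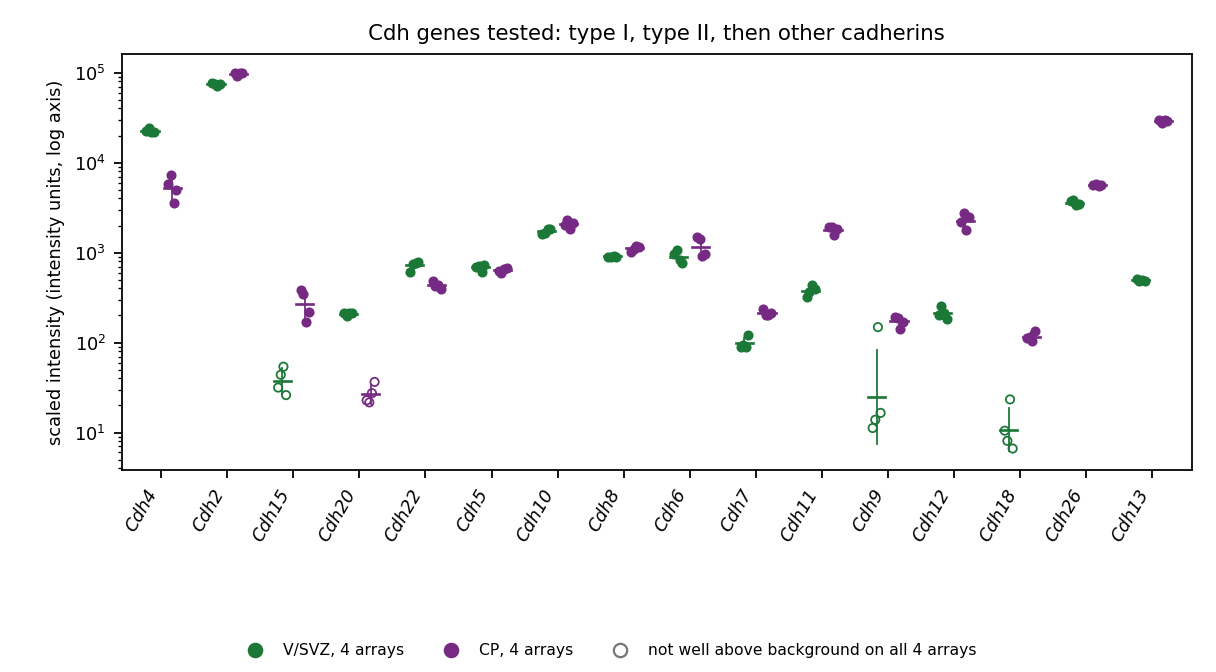
Scaled intensity (log axis, intensity units) of the 16 tested Cdh genes on the 4 V/SVZ and 4 CP arrays, 1 point per array, with a dash at the mean of the log2 values, a vertical line of 1 SD on each side and open points where a tissue was not well above background on all 4 arrays. Cdh4, Cdh20 and Cdh22 lie higher in V/SVZ, Cdh13, Cdh12 and Cdh11 lie higher in CP, and the arrays of Cdh5, Cdh6 and Cdh9 overlap.

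Type II cadherins, which sort neurons by type in the nervous system, differed in both directions: 2 of 11 tested were higher in V/SVZ, 7 were higher in CP and 2 were not called. That is 81.8% called, near the 79.5% of all genes tested. Cdh20 and Cdh22 were the pair higher in V/SVZ. Cdh20 read 211, 196, 211 and 213 in V/SVZ and 22.8, 21.6, 27.4 and 36.5 in CP, where it was well above background on none of the arrays. In the main fit, without normexp, it was at least 4.62-fold higher in V/SVZ (adjusted p = 5.468e-07). This bound was taken against the dimmest signal called above background on each CP array. All 4 V/SVZ samples were alike. The normexp correction gave 2.06-fold, below the bound, which therefore holds for the main fit only. Cdh22 read 617, 750.1, 769 and 778 in V/SVZ and 486, 429, 435 and 397 in CP. Its difference was 0.74 ± 0.09, 1.67-fold, with no overlap (adjusted p = 0.000125).

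Cdh12 and Cdh18 were among the type II genes higher in CP, the latter known only as a bound. Cdh12 read 205, 253, 213 and 182 in V/SVZ and 2180.3, 2764, 1765 and 2494 in CP. Every CP sample was several times any V/SVZ sample, with a difference of -3.42 ± 0.15, 10.71-fold (adjusted p = 2.116e-07). Cdh18 was not well above background on any V/SVZ array, where it read 10.5, 8.08, 23.3 and 6.64, and read 112, 116, 103 and 134 in CP. In the main fit it was at least 3.49-fold higher in CP (adjusted p = 4.312e-05). The normexp correction gave 2.43-fold, a value to which that bound does not apply. Cdh11, widely expressed in mesenchyme and in developing brain, read 324, 362, 435 and 398 in V/SVZ and 1939.7, 1919, 1556 and 1818 in CP. The tissues were well apart, at -2.25 ± 0.11 or 4.77-fold (adjusted p = 2.978e-07), and the second Cdh11 probe gave -1.58.

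The size of the Cdh9 difference depended on 1 library. It read 11.2, 13.9, 148 and 16.5 in V/SVZ and 194, 187, 140.4 and 171 in CP. The probe was well above background on 1 of 4 V/SVZ arrays, and V/SVZ sample 3 stood far above the others of its tissue and overlapped the CP samples. The difference was -2.79 ± 0.78, 6.91-fold (adjusted p = 0.01072), and became -3.65 without that sample (adjusted p = 1.118e-06) and 2.29-fold with the normexp correction. Another 3 genes were higher in CP by less. Cdh7 read 89.6, 94.7, 90.0 and 122 in V/SVZ and 237, 204, 203 and 212 in CP, a difference of -1.12 ± 0.11 or 2.18-fold with no overlap. Cdh8, a marker of cortical areas and layers, read 892, 903, 927 and 901 in V/SVZ and 1023, 1091, 1198 and 1151 in CP, close but without overlap, at -0.30 ± 0.05 (adjusted p = 0.0009335). Cdh10 read 1612, 1635, 1824 and 1833 in V/SVZ and 2020.0, 2286, 1847 and 2117 in CP, at -0.26 ± 0.08. Its samples nearly touched, and its call (adjusted p = 0.01457) was lost when arrays were scaled to their medians (adjusted p = 0.1139).

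Cdh5 and Cdh6 were not called. Cdh5 (VE-cadherin), the junction protein of blood vessel endothelium, read 700.4, 701, 611 and 736 in V/SVZ and 622, 592, 655 and 675 in CP, which overlap. Its difference was 0.11 ± 0.07 with a 95% interval of -0.05 to 0.27 (adjusted p = 0.1715), and it was called at 0.17 without V/SVZ sample 3 (adjusted p = 0.02572). Of the 8 endothelial markers, 2 were higher in V/SVZ, 1 was higher in CP and 5 were not called, with a median difference of -0.01. Their summed intensity was 16966 to 18745 in V/SVZ and 14346 to 15996 in CP. The sum weighs bright probes most, here Kdr and Cldn5, with geometric means of 5929 and 8390 in V/SVZ. These were the 2 markers higher in V/SVZ. Cdh6, which marks parts of the cortex and striatum in the embryo, read 969, 1067, 836 and 767 in V/SVZ and 1482, 1416, 906 and 975 in CP. The CP samples 1 and 2 lay above all others and samples 3 and 4 lay among V/SVZ. The difference was -0.37 ± 0.19 with an interval of -0.81 to 0.07 (adjusted p = 0.1041), and it was called without CP sample 3 at -0.49 (adjusted p = 0.04067) and with the replicate number as a block (adjusted p = 0.01359). Cdh19 was well above background on none of the arrays, and Cdh24, on 1 array of each tissue, was not tested.

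Among cadherins outside the classical types, Cdh13 had the largest difference of any family member tested. Cdh13 (T-cadherin) lacks the transmembrane and catenin-binding parts and is held to the membrane by a lipid anchor. It read 513, 486, 492 and 480.2 in V/SVZ and 29968, 27741, 29695 and 28857 in CP. Samples of a tissue differed little and the tissues were far apart, with a difference of -5.88 ± 0.04 or 59.0-fold (adjusted p = 8.617e-11). Cdh26 read 3710.3, 3861, 3424 and 3432 in V/SVZ and 5587, 5759, 5555 and 5604 in CP, a smaller difference of -0.64 ± 0.05 (adjusted p = 4.562e-06) with no overlap. Cdh16, Cdh17 and Cdh23 were well above background on none of the arrays and were not tested.

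The non-clustered protocadherins are expressed from separate genes and fall into delta-1 and delta-2 types and a few others. All 11 were tested and all were well above background on all 8 arrays, so none had passed through one tissue alone. Pcdh10 and Pcdh18 were higher in V/SVZ, 7 genes were higher in CP and 2 were not called, and the median difference was -0.26. That is 81.8% called, near the 79.5% of all genes tested. The 3 delta-1 genes were all higher in CP, while the 5 delta-2 genes split into 2 higher in V/SVZ, 2 higher in CP and 1 not called.

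Pcdh7 and Pcdh9 are delta-1 protocadherins, whose tails can bind protein phosphatase 1. Pcdh7 read 234, 205, 201 and 195 in V/SVZ and 1979.6, 1973, 1869 and 2055 in CP. The tissues were far apart on this probe, at -3.24 ± 0.06 or 9.44-fold (adjusted p = 2.236e-09). The 3 Pcdh7 probes were all called higher in CP but spread from -3.24 to -0.77, and their mean gave -2.36. Pcdh9 read 284, 335, 434 and 351 in V/SVZ and 2900.0, 2546, 3221 and 2995 in CP. Its difference was -3.07 ± 0.13, 8.38-fold (adjusted p = 1.557e-07), and its 3 probes were closer together, from -3.17 to -2.68. Pcdh1, the third delta-1 gene, read 859, 822, 802 and 699.7 in V/SVZ and 906, 926, 988 and 973 in CP. It was only slightly higher in CP, at -0.26 ± 0.07 (adjusted p = 0.008554), a call lost with median scaling (adjusted p = 0.07018).

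**Figure D3:**
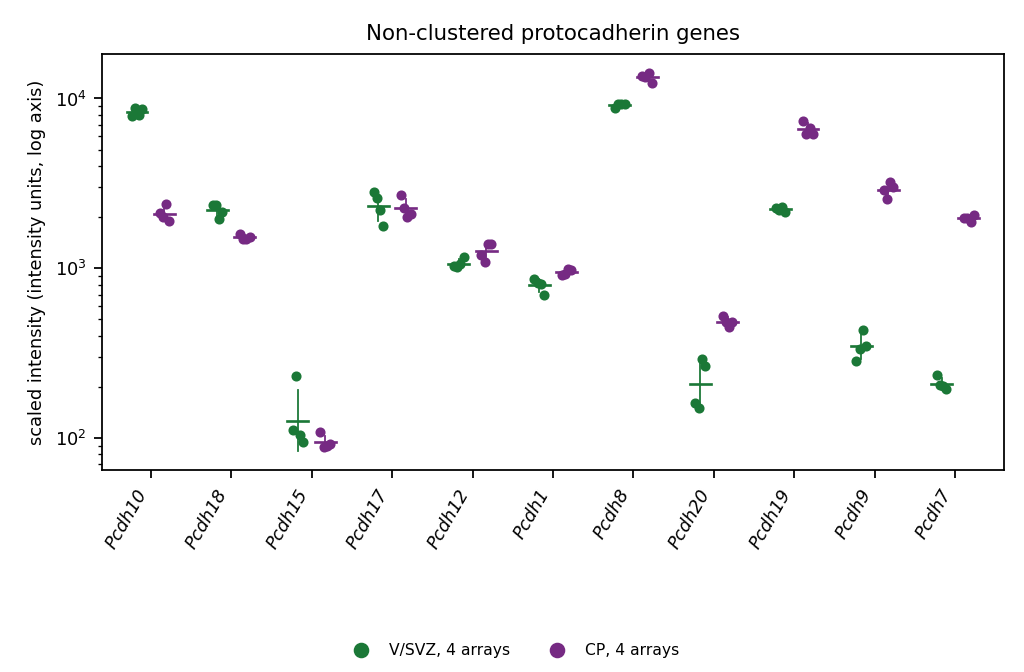
Scaled intensity (log axis, intensity units) of the 11 non-clustered protocadherins on the 4 V/SVZ and 4 CP arrays, 1 point per array, with a dash at the mean of the log2 values and a vertical line of 1 SD on each side. Pcdh10 and Pcdh18 lie higher in V/SVZ, Pcdh7, Pcdh9 and Pcdh19 lie higher in CP, and the arrays of Pcdh12, Pcdh15 and Pcdh17 overlap.

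Delta-2 protocadherins carry a tail motif that recruits the WAVE complex, a driver of actin branching. Pcdh10 was the largest protocadherin difference in favour of V/SVZ. It read 7924, 8819, 7986 and 8703 in V/SVZ and 2104, 2015, 2374 and 1905 in CP. All V/SVZ samples stood about alike and above CP, at 2.0 ± 0.07 or 3.99-fold (adjusted p = 7.12e-08), and its second probe gave 1.54. Pcdh18 read 2341, 2352, 1948 and 2144 in V/SVZ and 1591, 1486, 1495 and 1521 in CP, a smaller difference of 0.52 ± 0.07 (adjusted p = 0.0001284).

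Pcdh19, the X-linked delta-2 gene known from an epilepsy syndrome, went the other way. It read 2267, 2214, 2295 and 2157 in V/SVZ and 7379, 6178, 6689.8 and 6179 in CP. Its difference was -1.56 ± 0.06, 2.95-fold (adjusted p = 1.066e-07), with no overlap. Pcdh8, which takes part in synapse remodelling, read 8822, 9329, 9329 and 9326 in V/SVZ and 13603, 13407, 14184 and 12413 in CP. It was higher in CP by a modest 1.46-fold, a difference of -0.54 ± 0.05 (adjusted p = 1.422e-05). Pcdh17 was not called: it read 2827, 2577, 2218 and 1783 in V/SVZ and 2706, 2262, 2010.5 and 2078 in CP. Its samples overlapped, and the interval of its difference, -0.32 to 0.41, included 0 (adjusted p = 0.8094).

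Of the other non-clustered genes, Pcdh20 read 161, 151, 293 and 267 in V/SVZ and 525, 482, 448 and 479 in CP. It was higher in CP, at -1.21 ± 0.22 or 2.31-fold (adjusted p = 0.00127). Pcdh12, an endothelial protocadherin, read 1024, 1018, 1062 and 1163 in V/SVZ and 1191, 1090.2, 1395 and 1388 in CP. It was near the threshold at -0.24 ± 0.09 with overlapping samples (adjusted p = 0.03849), and its call was lost with median scaling (adjusted p = 0.2366), with quantile normalization (adjusted p = 0.05158), with no filter (adjusted p = 0.06249) and without any of 5 single samples, at adjusted p up to 0.09771. Pcdh15, a protein of hair-cell tip links, was the gene whose probes differed in their call. Its brighter tested probe read 111, 232, 104 and 94.2 in V/SVZ and 108, 88.4, 89.7 and 91.9 in CP, with V/SVZ sample 2 well above the rest. That probe gave 0.42 ± 0.27 and was not called (adjusted p = 0.1873), while array weights gave 0.86 (adjusted p = 0.02393). Its other tested probe was called higher in CP at -1.35, and 4 further Pcdh15 probes were too dim to test.

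The clustered protocadherins all pointed to the CP where they could be measured. Among the 22 of 35 genes that were well above background on all 8 arrays, 22 were higher in CP with a median of -1.62, and 18 differed by at least 2-fold. The corresponding share of all genes called higher in CP was 44.6%. With no filter, 30 of the 35 with a mapped probe were called higher in CP, 5 were not called, and none was called higher in V/SVZ. The test itself took in 28 genes, 28 of them higher in CP, with a median difference of -1.85 and adjusted p between 3.481e-09 and 0.002903. Of those, 6 were not above background on every V/SVZ array and so passed through CP alone. The normexp correction kept 28 calls and moved the median to -1.37, with 19 genes at 2-fold or more where the main setting gave 24. Probes not above background on any array had a median difference of -0.43 between the tissues and so between the slides. Each of the 28 tested genes lay below that value, but the Pcdhga1 interval, -0.87 to -0.29, included it. Over all genes tested, the 25th percentile of the difference was -0.66 and the median -0.09. Between 25% and 50% of all genes tested therefore lay below -0.43 too. The 6 genes that passed through CP alone were favoured to lie below it, and no gene was tested against it. The genes of a cluster are close in sequence, and alpha and gamma transcripts share the constant exons at their 3' ends. Whether a probe read more than its own gene was not tested, since probe sequences were not used here.

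**Figure D4:**
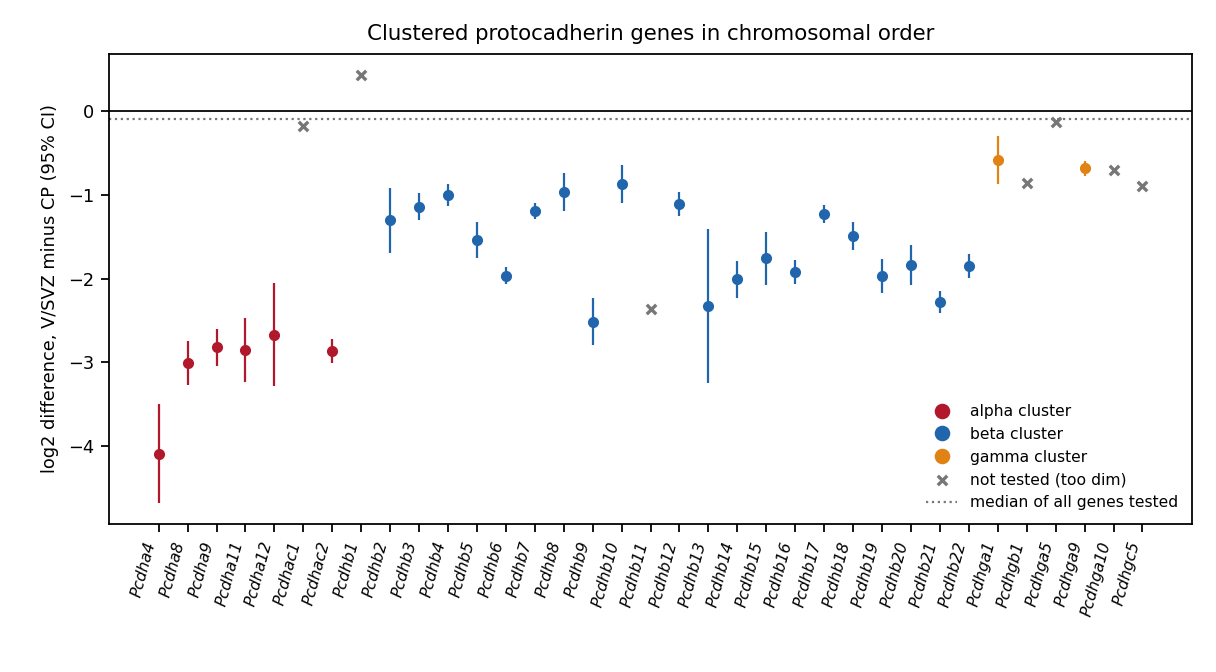
Difference (log2 V/SVZ minus CP, vertical axis) with its 95% interval for the 35 clustered protocadherins that had a mapped probe, in chromosomal order. The dotted line is the median of all genes tested, and crosses mark the 7 genes too dim to test. Every tested gene lies below 0, the alpha genes at -2.67 or lower (the Pcdha4 point is a fitted value whose V/SVZ side was not well above background), the beta genes between -2.51 and -0.87 and the gamma genes at -0.68 and -0.58.

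The alpha genes had the largest differences of the clusters. All 6 tested were higher in CP, by 6.35-fold or more, and their median difference was -2.85, or -2.31 with the normexp correction. Pcdha4 was not well above background on any V/SVZ array, where it read 10.8, 23.5, 21.1 and 23.9, and read 312, 381, 300.2 and 303 in CP. In the main fit it was at least 9.71-fold higher in CP (adjusted p = 1.481e-06). The normexp correction gave 4.99-fold, a value to which that bound does not apply. Pcdha8 read 418, 509, 580.1 and 454 in V/SVZ and 3527, 4443, 3833 and 3875 in CP. Its samples were clearly apart, at -3.01 ± 0.11 or 8.03-fold (adjusted p = 7.386e-08). Its second probe, above background on 1 of 4 V/SVZ arrays, gave -3.66.

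Pcdhac2, a C-type gene, of the kind that neurons do not choose at random, had the smallest adjusted p of the clusters. It read 2621, 3205, 2976 and 3027 in V/SVZ and 21556, 22021, 21218 and 20994 in CP. Its difference was -2.86 ± 0.06, 7.27-fold (adjusted p = 3.481e-09), and its second probe gave -2.01. That second probe was far dimmer, with geometric means of 57.5 in V/SVZ and 232 in CP, and was above background on 3 of 4 V/SVZ arrays. Pcdha11, above background on 3 of 4 V/SVZ arrays, read 45.1, 80.0, 65.5 and 58.7 there and 413, 441, 412 and 495 in CP. It differed by -2.85 ± 0.16, 7.19-fold (adjusted p = 9.919e-07), and by 4.32-fold with the normexp correction. The remaining tested alpha genes followed them. Pcdha9 read 67.1, 84.5, 87.3 and 86.4 in V/SVZ and 511, 594, 589.8 and 593 in CP, at -2.82 ± 0.10 or 7.06-fold, and at -2.16 with the normexp correction. Pcdha12 read 120.4, 87.7, 207 and 163 in V/SVZ and 674, 914, 975 and 968 in CP, at -2.67 ± 0.27 or 6.35-fold. Apart from Pcdha4, whose fold is a bound, the 95% intervals of the alpha genes overlapped one another, so no order among them can be read. Pcdhac1, the other C-type alpha gene, was well above background on none of the arrays.

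The 20 tested beta genes, each a whole protein from a single exon with no shared constant part, were 1.82-fold to 5.70-fold higher in CP with a median of 3.14-fold, and 18 reached 2-fold. The 16 above background on all 8 arrays had a median difference of -1.40. Pcdhb9 was above background on 1 of 4 V/SVZ arrays, and read 21.5, 25.3, 23.2 and 29.7 there and 167, 129.9, 142 and 129 in CP. It differed by -2.51 ± 0.12, 5.70-fold (adjusted p = 3.155e-07), or 2.63-fold with the normexp correction. Pcdhb13 was above background on 2 of 4 V/SVZ arrays, and read 41.4, 101, 34.0 and 25.3 there and 241, 252, 195 and 191 in CP. V/SVZ sample 2 was the highest of its tissue but stayed below CP. The difference was -2.32 ± 0.39, 5.01-fold (adjusted p = 0.0007837), moving to 2.80-fold with the normexp correction and to -1.70 with array weights.

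Pcdhb21 and Pcdhb14 were above background throughout. Pcdhb21 read 1283, 1425, 1464 and 1268 in V/SVZ and 6682, 6746, 6415 and 6493 in CP, a difference of -2.28 ± 0.06 or 4.85-fold (adjusted p = 6.572e-09). Pcdhb14 read 204, 219, 204 and 168 in V/SVZ and 813, 879, 775 and 718 in CP, at -2.0 ± 0.09 or 4.01-fold (adjusted p = 2.898e-07). In both genes every CP sample lay well above every V/SVZ sample. The smallest beta differences were those of Pcdhb10 at -0.87 ± 0.10 and Pcdhb8 at -0.97 ± 0.10.

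The other beta genes lay between these ends. Pcdhb6 at -1.96 ± 0.04, Pcdhb19 at -1.96 ± 0.09 and Pcdhb16 at -1.92 ± 0.06 came next with the main setting. Pcdhb22 at -1.85 ± 0.06, Pcdhb20 at -1.84 ± 0.10 and Pcdhb15 at -1.76 ± 0.13 followed, with intervals that overlapped those of the genes before them. Pcdhb5 at -1.54 ± 0.09, Pcdhb18 at -1.49 ± 0.07 and Pcdhb2 at -1.30 ± 0.17 were intermediate. Pcdhb17 at -1.23 ± 0.05, Pcdhb7 at -1.19 ± 0.04, Pcdhb3 at -1.14 ± 0.07, Pcdhb12 at -1.11 ± 0.06 and Pcdhb4 at -1.0 ± 0.06 stood just past 2-fold. Pcdhb19 was well above background on 2 and Pcdhb5 on 3 of the 4 V/SVZ arrays, and the normexp correction moved them to -1.15 and -0.95, which changes their place in this order. Pcdhb3 was printed in 10 spots on each array, whose log2 values had an SD of 0.029 to 0.118 within an array. That is the spread of repeat spots and does not measure the spread of samples. Pcdhb1 and Pcdhb11 were not tested: Pcdhb1 read 10.3, 32.6, 11.8 and 104 in V/SVZ and 11.5, 18.4, 22.6 and 26.2 in CP, and Pcdhb11 read 40.8, 7.27, 6.66 and 5.27 and 47.5, 59.0, 63.8 and 41.1. Pcdhb1 overlapped between tissues and Pcdhb11 did not, at levels where most arrays were not above background.

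The gamma cluster was thinly covered: 6 of its genes had a mapped probe, and 2 of those 6 were tested. Pcdhga9 read 60779, 64455, 60034 and 64348 in V/SVZ and 99706, 98050.5, 102999 and 99898 in CP. It was 1.61-fold higher in CP, a difference of -0.68 ± 0.04 (adjusted p = 7.725e-07). Its second probe, far dimmer with geometric means of 1630 in V/SVZ and 2432 in CP, gave -0.58. Pcdhga1 read 53.5, 71.4, 77.9 and 59.5 in V/SVZ and 99.7, 99.3, 85.9 and 104 in CP, at -0.58 ± 0.12 or 1.49-fold (adjusted p = 0.002903). Neither gene overlapped between tissues, and both differed by less than any alpha or beta gene tested, although no test compared the clusters. Pcdhga5 and Pcdhga10 were well above background on none of the arrays, Pcdhgb1 was so on 2 arrays of each tissue and Pcdhgc5 on 2 CP arrays, and none of them was tested. Pcdhgb1 read 24.4, 57.0, 37.9 and 23.7 in V/SVZ and 43.5, 102, 73.2 and 41.7 in CP, which overlap.

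Other genes of cadherin adhesion were read from a list of 55, of which 53 had a probe and 40 were tested: 12 had more signal in V/SVZ, 23 had more in CP and 5 were not called, with a median of -0.51. That is 87.5% called, where 79.5% of all genes were. The catenins divided by paralog. Ctnna1 (alpha-E-catenin), which ties the junction to actin, read 44681, 46844, 45475 and 45159.8 in V/SVZ and 8503, 7404, 7484 and 7944 in CP, 5.82-fold higher in V/SVZ at 2.54 ± 0.05 (adjusted p = 2.342e-09). Ctnna2 (alpha-N-catenin), its neural relative, read 20200.1, 21351, 25072 and 24489 in V/SVZ and 63727, 61879, 64447 and 65239 in CP, 2.81-fold higher in CP at -1.49 ± 0.07 (adjusted p = 3.698e-07). Neither overlapped between tissues. Ctnnb1 (beta-catenin) was higher in V/SVZ at 1.28 ± 0.04 and Ctnnd2 (delta-catenin), found at synapses, was higher in CP at -1.86 ± 0.07. Vcl (vinculin), which reinforces junctions under tension, was higher in V/SVZ at 2.22 ± 0.06. Of the 11 catenins and linkers tested, 4 were higher in V/SVZ and 7 in CP, beside 35% and 44.6% of all genes tested.

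In the wider cadherin superfamily, 12 genes were tested, with 2 higher in V/SVZ, 7 higher in CP and 3 not called. That is 75% called, no more than the 79.5% of all genes tested. Celsr1, a planar polarity cadherin, read 83925, 85393, 84085 and 84349 in V/SVZ and 2194, 1673, 2197 and 2046 in CP, 41.9-fold higher in V/SVZ (adjusted p = 9.826e-10). Clstn2 (calsyntenin-2), a synaptic cadherin, read 3899, 4611, 4719.8 and 3892 in V/SVZ and 64829, 61603, 58972 and 62569.6 in CP, 14.5-fold higher in CP (adjusted p = 2.313e-09). These were the widest separations of the list in each direction. Fat1, the other superfamily gene higher in V/SVZ, differed by 2.19 ± 0.25. Fat4, a giant cadherin that binds Dchs1, was higher in CP at -2.07 ± 0.05, and Dchs1 itself was not called at 0.05 ± 0.05. Fat2 at 0.11 ± 0.06 and Cdhr2 at -0.15 ± 0.07 were not called either, but Cdhr2 was called higher in CP with the normexp correction (-0.34, adjusted p = 0.0008913) and without V/SVZ sample 1 (-0.22, adjusted p = 0.00143). Celsr2, called higher in CP at -0.23 ± 0.04, lost its call with median scaling (adjusted p = 0.09801). Of 8 actin and kinase partners of protocadherin tails, 7 were higher in CP, among them Wasf1 at -1.43 ± 0.06, and Cyfip1 was higher in V/SVZ at 0.36 ± 0.05. By comparison, 44.6% of all genes tested were called higher in CP.

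Genes known to act on the clustered promoters were tested as well. Rad21, a cohesin subunit, differed by 0.96 ± 0.04, Smchd1 by 0.44 ± 0.06, Dnmt3b by 0.23 ± 0.07 and Ctcf by 0.11 ± 0.04, all called higher in V/SVZ, while Setdb1 was not called at 0.0 ± 0.04. The call of Ctcf was lost with median scaling (adjusted p = 0.0622) and without any of 6 single samples, at adjusted p up to 0.0809, and that of Dnmt3b with the normexp correction (adjusted p = 0.6987). Of the repressors of classical cadherins, Zeb1 was higher in V/SVZ at 1.93 ± 0.04, Zeb2 was higher in CP at -1.62 ± 0.09, and Snai1 was not called at -0.49 ± 0.21, though it was called higher in CP with the normexp correction (adjusted p = 0.008317) and without V/SVZ sample 1 (-0.68, adjusted p = 0.004501). Adam10, which cuts cadherins at the cell surface, was near the threshold at -0.11 (adjusted p = 0.03222), and its call was lost with median scaling (adjusted p = 0.8095), with quantile normalization (adjusted p = 0.1545) and without any of 5 single samples, at adjusted p of 0.05279 to 0.08827. None of these genes is itself a cadherin, and a link between their levels and those of the family was not tested.

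**Figure D5:**
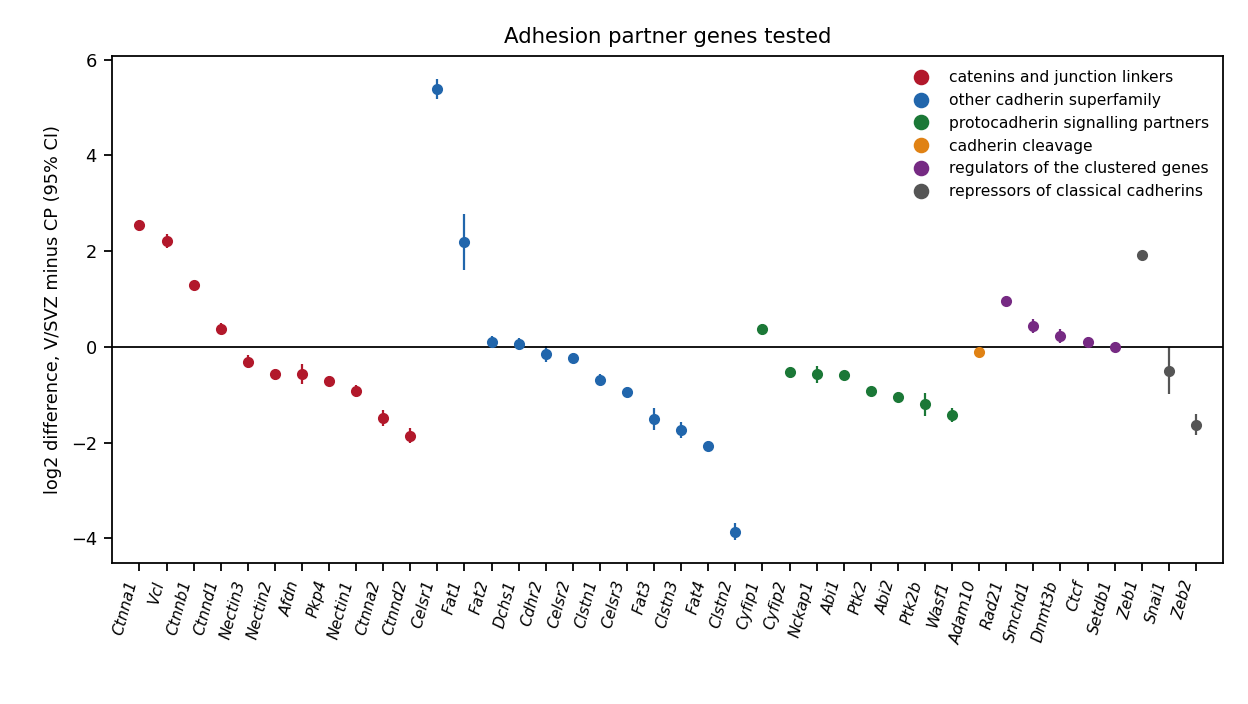
Difference (log2 V/SVZ minus CP, vertical axis) with its 95% interval for the 40 adhesion partner genes tested, coloured and ordered by role. Celsr1 at 5.39 and Ctnna1 at 2.54 are the highest, and Clstn2 at -3.86 and Fat4 at -2.07 are the lowest.

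Other cell types of the dissection were read through their markers beside these results. The 5 microglial markers were all higher in V/SVZ, with summed intensities of 16648 to 22984 there and 4736 to 5722 in CP. The 6 meningeal and fibroblast markers were mixed, with 1 higher in V/SVZ, 2 higher in CP and 3 not called, and sums of 1579 to 2507 and 1790 to 2150. Of the 5 pericyte markers 2 were higher in V/SVZ and 3 were not called, and of the 5 interneuron markers 2 were higher in V/SVZ and 3 in CP. Of the 4 Schwann and oligodendrocyte markers tested, 1 was higher in V/SVZ, 1 was higher in CP and 2 were not called, and all 3 blood markers tested were higher in V/SVZ. Of the 5 choroid plexus markers, Ttr, Kl and Clic6 were well above background on none of the arrays and Kcne2 on 1 CP array, while Folr1 was so on all 8 and was higher in CP at -0.64 ± 0.16 (adjusted p = 0.006877). The part of any of these cell types in the family's values was not tested.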

How the data were processed

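The deposited scanner files were written by Agilent Feature Extraction 10.7.1.1, per the file headers. Per the file headers, the deposited intensities (the processed signal) are on a linear scale, with the background subtracted by the scanner software on these 1-colour arrays. A deposited table of log2 values, made by the authors with a method not given in the sources used here, served only as an alternative. Each of its columns matched the array with that number from the opposite tissue (r = 1), so its direction was turned, and the marker genes of the scanner files fitted their labels.

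Control and outlier spots were left out and spots of a probe averaged. Log2 intensities were reduced by each array's 75th percentile and fitted with limma 3.58.1 in R 4.3.3 (lmFit, eBayes, Benjamini-Hochberg over all genes, threshold 0.05). Printed intensities were rescaled to a common 75th percentile of 2335. Probes entered the test if well above background throughout the 4 arrays of either tissue, with 3 or more values per tissue. The brightest tested probe stood for a gene. For a gene above background on no array of a tissue, the fold is a bound that applies to the main fit and not to normexp values. Values on all arrays are given for up to 4 called members per group and direction with the largest differences and for members of known interest, and other members by difference or range. The 8 arrays limit the precision. The script was tested on simulated data. Members and lists were chosen with earlier results of these data known. The normexp alternative (offset 50) used median spot and background signals.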

Additional observations from a re-analysis of the deposited data

Results flagged for a closer look

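Within a tissue, 7 of 66 sets of 4 arrays had an end value set apart from the other 3 by more of the range than Dixon's 95% critical value, where chance alone gives about 5%. For Cdh2 in CP, sample 2 read 92685 against 98203 for the nearest, a gap of 0.921 of the range. For Cdh20 in V/SVZ, sample 2 read 196 against 211, a gap of 0.894. For Cdh22 in V/SVZ, sample 1 read 617 against 750.1, a gap of 0.844. For Cdh9 in V/SVZ, sample 3 read 148 against 16.5, a gap of 0.85, and this is the value that lowered the Cdh9 difference. For Pcdh8 in V/SVZ, sample 1 read 8822 against 9326, a gap of 0.995 of a narrow range. For Pcdha4, sample 1 in V/SVZ read 10.8 against 21.1, a gap of 0.843 among values not above background, and sample 2 in CP read 381 against 312, a gap of 0.844. Each of these genes kept its direction and call with that sample left out.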

How the results depend on the processing

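The clustered protocadherin count, 28 higher in CP, was the same under both other scalings, normexp, the trended variance model, array weights, probe means and each of the 8 samples left out, and 22 of 22 were higher in CP with the filter set at all 8 arrays. The count of members not called, 4, became 7 with median scaling and 13 with no filter on dim probes, which adds 14 dim genes. The authors' deposited table held 31 member genes, and there 26 members and 15 of 15 clustered genes were higher in CP and 1 was not called. Of the recomputed values for named genes, 561 kept direction and call, 4 gained a call and 4 turned sign. The latter were Pcdh15 with the mean of its probes (-0.46) and Pcdh17 near 0, which ranged from -0.053 without V/SVZ replicate 1 to 0.17 without V/SVZ replicate 4 and was -0.01 without V/SVZ replicate 2 and without CP replicate 3. Samples with the same replicate number deviated together with correlations of 0.339, 0.308, 0.098 and 0.204. The highest correlation of each V/SVZ sample with a CP sample of another number was -0.074, 0.035, 0.206 and 0.160. Replicates 1, 2 and 4 thus correlated best with their own number and replicate 3 with another. Since replicate 3 did not follow its number, the main fit did not take the numbers as pairs. With the replicate number as a block, 5 members were higher in V/SVZ, 47 were higher in CP and 3 were not called. Median scaling moved the median of all genes from -0.09 to -0.01. Signal near background limits Pcdha4, Cdh18, Cdh20 and the other genes above background throughout 1 tissue alone.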

Other observations

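The deposited table of log2 values was set against the scanner files for its 17163 gene-probe rows. Each column correlated at -0.944 to -0.955 with the array it is named for and at r = 1 with the array of that number from the opposite tissue, with slopes of 0.997 to 1 and column medians of -0.03 to 0.02. The cause was not tested. The Cdh1 probe, printed in 10 spots on each array, had an SD of 0.096 to 0.256 (log2) among its spots, and read 5.69 to 9.95 in V/SVZ and 9.23 to 11.1 in CP at background. The 11 member probes not above background on any array had differences of -0.84 to -0.13 with a median of -0.41, beside -0.43 for all 11755 such probes.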
